A study of Labrus bergylta with 24 samples.

Results

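The gene models described here carry the names of endocytic receptors for protein and of the proteins that work with them. They were chosen by name, as every model called CUBN, Lrp2, AMN, MRC1, DAB2, LRP1, Lrpap1, STAB1, STAB2 or FCGBP in the deposited table, with all models of a shared name included. Whether models that share a name are separate genes or parts of 1 gene was not tested. This gave 29 of the 27392 gene models, namely 7 named MRC1, 6 named FCGBP, 4 each named Lrp2 and STAB2, 3 named LRP1 and 1 each named CUBN, AMN, DAB2, Lrpap1 and STAB1. The names were picked with earlier results of these data known. Counts of members set beside the share of all models therefore describe the members and are no test of them as a set. The intestine of 6 farmed ballan wrasse (Labrus bergylta), a fish without a stomach, was divided from front to back into segment 4, the hind-gut, and the more anterior segments 3, 2 and 1. RNA of every segment of every fish was sequenced, so that there were 24 libraries, 6 per segment. The fish were adults from 1 commercial farm, and no treatment is named. The sample numbers in the labels were read as fish. Every comparison is thus between segments of the same 6 fish, but the main test has no term for fish. Values are normalized counts, in which the reads of each model were scaled by the size factor of the library, and are not corrected for the length of the gene, so that levels are compared between segments, and ratios between genes serve only to compare fish.

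Cubilin (CUBN) is a large receptor without a membrane-spanning part, and amnionless (AMN) anchors it in the membrane and takes it to the cell surface. The complex works together with megalin (LRP2), a giant receptor of the LDL receptor family, and the adaptor DAB2 links the tails of such receptors to the clathrin coat. In the kidney tubule of mammals they recover filtered proteins and vitamin carriers, in the mammalian ileum cubilin takes up vitamin B12 bound to intrinsic factor, and in zebrafish enterocytes of the posterior intestine use cubilin, amnionless and Dab2 to take up dietary protein for digestion in lysosomes. The mannose receptor MRC1 is a lectin best known from macrophages and liver endothelium of mammals, LRP1 and the stabilins are broad scavenger receptors, Lrpap1 is a chaperone of the LDL receptor family, and FCGBP is a protein of intestinal mucus.

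The reads recovered per library numbered 7867202 to 29650320. The segment 4 library of fish 2 stood apart. On an axis from 0 at segment 3 to 1 at segment 4, set from the other fish and read as the median over 508 gene models that separate these segments, it lay at 0.4. The segment 4 libraries of the other fish lay at 1.09 to 1.12 on axes set in the same way. Results below were therefore also computed without that library. A segment holds many cell types, so that more cells of a type and more RNA per cell cannot be told apart.

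Of the 29 models, 20 reached a normalized count of 10 in 6 libraries and were tested. The other 9 were too low for a test, and their reads are given further on. Segment 4 against segment 1 called 11 of the 20 (9 higher and 2 lower) at an adjusted p under 0.05 with limma, where 31.9% of all 19515 models tested were called, 17.1% higher and 14.8% lower. Segment 4 against segment 2 called 10 (9 higher, 1 lower), where 20.5% of all models were called (9.72% higher and 10.8% lower), and without fish 3 this count was 6. Segment 4 against segment 3 called 8 (7 higher, 1 lower), where 11.0% of all models were called (5.21% higher and 5.82% lower). The median log2 fold change of the 20 models was 0.93 against segment 1 and 0.77 against segment 3, and the medians over all tested models were 0.04 and -0.01. The F test among the 4 segments called 11 of the 20, where 27.5% of all models were called, with 6 left without fish 3, 7 without fish 5 and 7 without the segment 4 libraries of fish 1 and fish 5. With fish as a block, each of these main counts of called members was higher, as given in the last section. No share of all models is set beside the counts of these other fits. They show only how the member counts depend on the fit.

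Among the 3 anterior segments no member passed limma's adjusted threshold. Segment 3 against segment 1 called 0 of 20, against 13.9% of all models (7.13% higher and 6.81% lower). Segment 3 against segment 2 called 0, against 2.08% (1.01% higher and 1.07% lower), and segment 2 against segment 1 called 0, against 0.676% (0.477% higher and 0.2% lower). At an unadjusted p under 0.05 these numbers were 2 (DAB2 and MRC1 LABE_00042762), 1 (AMN) and 2 (AMN and MRC1 LABE_00042762). The share of all models at that threshold is not given. With no difference, about 1 in 20 models would pass it, so these numbers are not read as a change. edgeR called 0 in each of these comparisons, and DESeq2 called 2 in segment 3 against segment 1 and 0 in the others. The shares of all models in these 2 fits are not given. In 7 models every library of segment 4 was higher than every library of the other segments, a pattern that 1.55% of all tested models showed. These were CUBN, AMN, DAB2, Lrpap1, Lrp2 LABE_00002019, MRC1 LABE_00048734 and LRP1 LABE_00038368. No member showed the opposite pattern, which 1.72% of all models did.

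**Figure D1:**
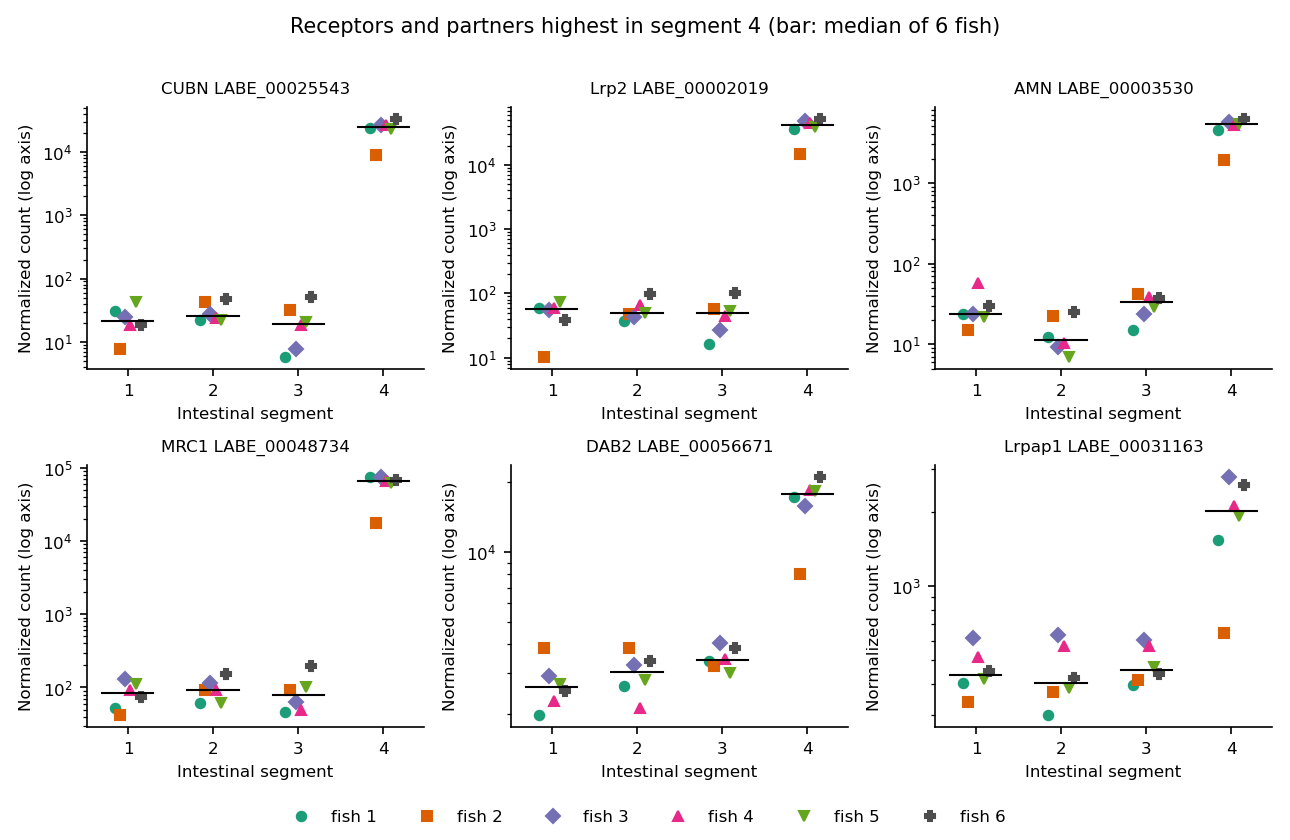
Normalized counts (log axis) of 6 gene models in each of the 24 libraries by intestinal segment, with 1 marker per fish and a bar at the median of 6 fish. All 6 models are higher in every segment 4 library than in any library of segments 1 to 3, and fish 2 (square) is the lowest of segment 4, for example 8815 for CUBN against a median of 25085.

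Cubilin and its anchor were close to the floor in the anterior intestine and abundant in segment 4. CUBN (LABE_00025543) had 8815 in the lowest, 25085 at the median and 33648 in the highest library of segment 4, against 5.72 to 51.0 with a median of 19.3 for segment 3, 22.4 to 48.0 with a median of 26.1 for segment 2 and 7.61 to 42.7 with a median of 21.8 for segment 1. The means were 23694.5 ± 8212 in segment 4 and 23.9 ± 12.05 in segment 1 (SD, n = 6 each). All fish had the step between segments 3 and 4, and no library of segments 1 to 3 came near the lowest library of segment 4. The log2 fold change on the scale of log2(value + 1) was 9.95 ± 0.44 (SE) against segment 1 (limma, adjusted p = 6.08e-14) and 10.21 ± 0.44 against segment 3 (adjusted p = 4.60e-14). This was the largest increase of all tested models in both comparisons. Without the segment 4 library of fish 2 it was 10.22 against segment 1 (adjusted p = 1.01e-14).

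AMN (LABE_00003530) had 1931 in the lowest, 5325 at the median and 6258 in the highest library of segment 4, against 15.3 to 41.9 with a median of 33.2 for segment 3, 6.92 to 24.9 with a median of 11.5 for segment 2 and 15.2 to 58.0 with a median of 23.5 for segment 1. The log2 fold change was 7.38 ± 0.34 against segment 1 (limma, adjusted p = 1.57e-13) and 7.22 ± 0.34 against segment 3 (adjusted p = 3.35e-13). At its low level in the anterior segments AMN was lowest in segment 2. It averaged 30.9 ± 10.3 in segment 3 and 14.5 ± 7.48 in segment 2 (SD, n = 6 each) and was higher in segment 3 in all 6 fish, with a log2 fold change of 1.11 ± 0.34 that did not pass (limma, adjusted p = 0.102). Without fish 2 that comparison passed at 1.16 (adjusted p = 0.0475), as did segment 2 against segment 1 at -1.25 (adjusted p = 0.0492), and limma with array weights called the step between segments 3 and 2 over all fish (adjusted p = 0.0284).

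Of the 4 models named for megalin, Lrp2 LABE_00002019 followed cubilin. It had 14715 in the lowest, 41932.5 at the median and 52424 in the highest library of segment 4, against 16.2 to 102 with a median of 49.2 for segment 3, 37.3 to 96.8 with a median of 49.3 for segment 2 and 10.1 to 72.8 with a median of 57.0 for segment 1. The log2 fold change was 9.72 ± 0.43 against segment 1 (limma, adjusted p = 6.08e-14) and 9.70 ± 0.43 against segment 3 (adjusted p = 7.72e-14), the next largest increase after CUBN in both. Lrp2 LABE_00002018, which was too low to test, was found in the same segment at a very low level. Its 44 reads all came from segment 4, where each of the 6 libraries had some (1.82 to 11.3 normalized counts), and the 18 other libraries had 0 reads. Set against a floor of 3 reads over those 18 libraries, this is at least 34.7-fold higher. Whether these models with consecutive identifiers belong to 1 gene was not tested.

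Another model, LRP2 LABE_00036573, went the other way. Its values in segment 4 were 30.3, 120.3, 13.7, 13.7, 38.3 and 18.4 in fish 1 to 6, against 40.7, 78.6, 137.5, 60.1, 113.7 and 98.5 in segment 1. Fish 2 was the exception, since it alone was higher in segment 4, and the groups overlapped. The model fell by 1.50 ± 0.40 on the log2 scale against segment 1 (limma, adjusted p = 0.00595), and without fish 3 the change was -1.15 (adjusted p = 0.0543). The fall of 1.26 ± 0.40 against segment 3 (adjusted p = 0.0450) was near the threshold and passed under 6 of 18 alternatives. It failed, for example, without any 1 of fish 1, 3, 4, 5 or 6 and in edgeR and DESeq2. Without the segment 4 library of fish 2 the change was -1.91 against segment 1 (adjusted p = 6.98e-05) and -1.67 against segment 3 (adjusted p = 0.000609). With fish as a block the fall against segment 3 also passed (adjusted p = 0.0298). Markers of absorptive epithelium moved in the same direction: 16 of 25 tested models of that list were lower in segment 4 than in segment 1 and 1 was higher, where 14.8% of all models were lower and 17.1% higher. The summed value of all models of the list was 195378 to 299646 in segment 4, highest in fish 2, against 443861 to 555324 in segment 1. Their part in the fall of this Lrp2 model was not tested. The remaining model, Lrp2 LABE_00059820, varied by fish and is described with FCGBP.

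DAB2 and Lrpap1 were present along the whole intestine and rose in segment 4. DAB2 (LABE_00056671) had 8012 in the lowest, 17767 at the median and 21125 in the highest library of segment 4, against 3013 to 4067 with a median of 3434 for segment 3, 2120 to 3861 with a median of 3034 for segment 2 and 1983 to 3869 with a median of 2612 for segment 1. Its log2 fold change was 2.57 ± 0.19 against segment 1 (limma, adjusted p = 3.26e-10) and 2.18 ± 0.19 against segment 3 (adjusted p = 1.95e-08). DAB2 was also higher in segment 3 than in segment 1 in 5 of 6 fish, with a log2 fold change of 0.40 ± 0.19 that did not pass (adjusted p = 0.185), and it passed without fish 2 at 0.53 (adjusted p = 0.00715). Lrpap1 (LABE_00031163) had 642.5 in the lowest, 2020 at the median and 2795 in the highest library of segment 4, against 397.6 to 604.5 with a median of 454.3 for segment 3, 298.3 to 631.8 with a median of 403.7 for segment 2 and 337.4 to 612.9 with a median of 436.3 for segment 1. The increase was 1.96 ± 0.26 against segment 1 (adjusted p = 2.62e-06) and 1.88 ± 0.26 against segment 3 (adjusted p = 1.18e-05). Its segment 4 library of fish 2 lay just above the highest anterior library, and without it the log2 fold change against segment 1 was 2.25 (adjusted p = 2.52e-09).

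The 7 models named MRC1 did not behave alike. They are grouped by name only, and whether each is a separate mannose receptor gene was not tested. MRC1 LABE_00048734 had 17445 in the lowest, 67029 at the median and 76104 in the highest library of segment 4, against 45.8 to 197.8 with a median of 78.2 for segment 3, 62.1 to 154.5 with a median of 92.8 for segment 2 and 41.9 to 131.0 with a median of 83.1 for segment 1. It took 0.332% ± 0.120 of the reads of a segment 4 library (SD, n = 6). The log2 fold change was 9.44 ± 0.37 against segment 1 (limma, adjusted p = 1.23e-14) and 9.39 ± 0.37 against segment 3 (adjusted p = 1.73e-14), and it had rank 3 by p among all tested models against segment 1. Without the segment 4 library of fish 2 the log2 fold change was 9.77 against segment 1 (adjusted p = 1.67e-16).

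No other MRC1 model rose. MRC1 LABE_00018940 ranged from 2041 to 2722 in segment 4, against 1801 to 3949 in segment 1, and its log2 fold change was -0.23 ± 0.23 (limma, adjusted p = 0.487). Mrc1 LABE_00018937 ranged from 442.2 to 615.8 in segment 4, against 522.8 to 904.1 in segment 1, with a log2 fold change of -0.42 ± 0.19 (adjusted p = 0.102). With fish as a block it passed as lower (adjusted p = 0.0427). MRC1 LABE_00042762 ranged from 18.2 to 56.8 in segment 4, against 80.2 to 147.1 in segment 1, with no overlap, and fell by 1.35 ± 0.36 on the log2 scale (adjusted p = 0.00584). Against segment 3 its log2 fold change was -0.48 ± 0.36 (adjusted p = 0.492), and it was lower in segment 3 than in segment 1 in all 6 fish, with a log2 fold change of -0.87 ± 0.36 (adjusted p = 0.119, and 0.0490 with fish as a block). MRC1 LABE_00078010 and LABE_00078008 had log2 fold changes of -0.27 ± 0.28 and 0.08 ± 0.61 against segment 1 (adjusted p = 0.516 and 0.946). MRC1 LABE_00085173, untested, had 65 reads, 2 from segment 4, 2 from segment 3, 32 from segment 2 and 29 from segment 1.

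Because MRC1 is a macrophage receptor in mammals, macrophage and other myeloid markers were set beside it. Of 17 tested marker models, 8 were higher and 1 lower in segment 4 than in segment 1, where 17.1% of all models were higher and 14.8% lower. Examples, which mark leukocytes in general, were ptprc (CD45) at 0.76 ± 0.14 (limma, adjusted p = 2.00e-04) and lcp1, an actin-bundling protein of leukocytes, at 0.81 ± 0.09 (adjusted p = 4.71e-07). Against segment 3, 1 of 17 was higher, where 5.21% of all models were. It was C1QC, at 0.38 ± 0.12 (adjusted p = 0.0426). The summed value of all models of the list was 55858 to 85086 in segment 4, 63537 to 76743 in segment 3 and 42871 to 52481 in segment 1. CSF1R, CD68, C1QA, C1QB and AIF1 of the list had no model. Among the scavenger receptors, CD163 LABE_00019159 and MARCO LABE_00019301, chosen after their values were seen, were not called. Against segment 1 they were at -0.30 ± 0.28 and 0.01 ± 0.23 (limma, adjusted p = 0.468 and 0.981). Siglec1 LABE_00031797 and COLEC12 LABE_00042192 of the same list, also chosen afterwards, were higher than in segment 1. They were at 1.52 ± 0.26 and 1.08 ± 0.29 (limma, adjusted p = 6.43e-05 and 0.00644). Neither passed against segment 3 (adjusted p = 0.533 and 0.735), and other tested models with their names were not called against segment 1. The part of macrophages and other myeloid cells in the level of MRC1 LABE_00048734 was not tested.

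**Figure D2:**
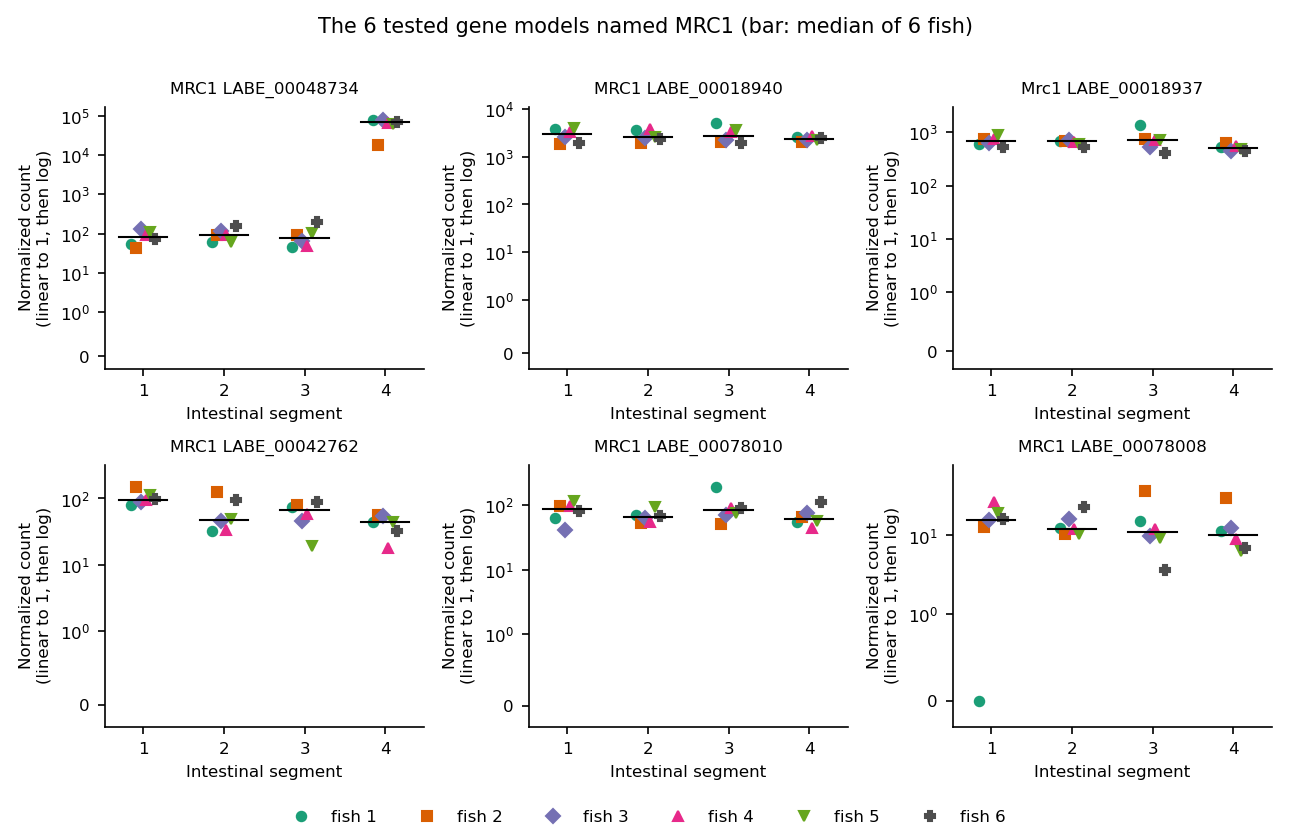
Normalized counts (axis linear to 1 and logarithmic above) of the 6 tested gene models named MRC1 by intestinal segment, with 1 marker per fish and a bar at the median of 6 fish. MRC1 LABE_00048734 rises to a median of 67029 in segment 4, and none of the other models passes the test as higher there.

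CUBN, Lrp2 LABE_00002019, AMN, MRC1 LABE_00048734, DAB2 and Lrpap1 were low together in fish 2. Relative to the median of the 6 segment 4 libraries, fish 2 had 0.351 for CUBN, 0.351 for Lrp2, 0.363 for AMN, 0.260 for MRC1, 0.451 for DAB2 and 0.318 for Lrpap1. The spread between the lowest and highest fish was 3.82-fold for CUBN and 3.56-fold for Lrp2, with fish 2 the lowest in both. The other fish had 22862 to 33648 for CUBN and 36140 to 52424 for Lrp2. The ratio of Lrp2 to CUBN stayed within 1.52 and 1.83 in segment 4, a 1.20-fold spread. The ratio of AMN to CUBN stayed within 0.186 and 0.237, a 1.28-fold spread. MRC1, DAB2 and Lrpap1 had ratios to CUBN that spread 1.62-fold, 1.52-fold and 1.64-fold. In the fish other than fish 2, MRC1 itself ran from 61307 to 76104, while its ratio to CUBN ran from 2.01 to 3.20.

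**Figure D3:**
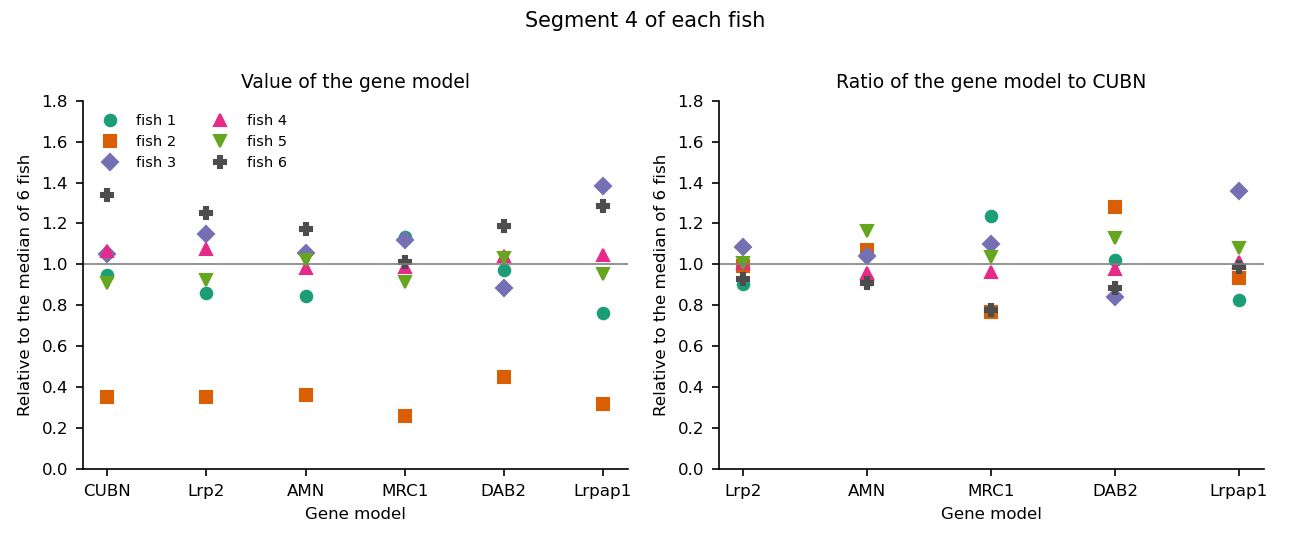
Values of 6 gene models in the segment 4 library of each fish (left) and their ratios to CUBN (right), each relative to the median of 6 fish on a linear axis, with 1 marker per fish. Fish 2 lies at 0.260 to 0.451 of the median for every model on the left, and on the right the spread of the ratio of Lrp2 to CUBN is 1.20-fold.

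Across the 24 libraries the Pearson correlation of log2(value + 1) with CUBN was 0.997 for Lrp2 LABE_00002019, 0.993 for MRC1 LABE_00048734, 0.973 for AMN, 0.941 for DAB2 and 0.897 for Lrpap1. These values describe the step between segment 4 and the rest, since the 6 libraries of a segment share its level. Of all tested models, those most correlated with CUBN were Lrp2 LABE_00002019, MRC1 LABE_00048734, the lysosomal proteases cathepsin B (CTSB LABE_00042575, r = 0.992) and Cathepsin L LABE_00033481 (r = 0.985), and SH3TC1 LABE_00070741 (r = 0.974). Cathepsin B averaged 64413.5 in segment 4 and 134 in segment 1, and Cathepsin L averaged 341608 in segment 4 and 987 in segment 1. MRC1 LABE_00048734 had CTSB as its closest model (r = 0.997), followed by Lrp2, CUBN, Cathepsin L and cfaD LABE_00034479 (r = 0.984). DAB2 had a different set, namely cfaD (r = 0.981), pcnx (r = 0.977), GSAP (r = 0.977), GRN, the progranulin gene (r = 0.973), and Tfeb, a transcription factor of lysosomal genes (r = 0.973).

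The scavenger receptors LRP1 and STAB1 had similar levels along the intestine, with 1 LRP1 model slightly higher in segment 4. LRP1 LABE_00038368 had 2343 in the lowest, 2431 at the median and 2765 in the highest library of segment 4, against 1845 to 2321 with a median of 2082 for segment 3 and 1784 to 2299 with a median of 2082.5 for segment 1. The log2 fold change was 0.31 ± 0.09 against segment 1 (limma, adjusted p = 0.00838), with all 6 fish higher in segment 4. The 0.28 ± 0.09 against segment 3 (adjusted p = 0.0397) did not pass without any 1 of fish 1, 3, 4, 5 or 6. It passed under 10 of 18 alternatives, among them fish as a block, DESeq2 and edgeR (adjusted p = 0.0120, 0.0210 and 0.0485). LRP1 LABE_00018846 and LABE_00018853 had log2 fold changes of 0.00 ± 0.33 and 0.20 ± 0.26 against segment 1 (adjusted p = 0.999 and 0.612). In segment 4 against segment 2, LABE_00018853 was at 0.57 ± 0.26 (adjusted p = 0.139) and passed with fish as a block (adjusted p = 0.00529). STAB1 (LABE_00010294) ranged from 868.6 to 1406 in segment 4 and from 1029 to 1389 in segment 1, with a log2 fold change of -0.01 ± 0.12 (adjusted p = 0.948). The 4 models named STAB2 were too low to test, with 106, 75, 22 and 2 reads over the 24 libraries and no more than 12.7 normalized counts in any library.

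The tested FCGBP models and the remaining Lrp2 model varied widely between fish within segment 4. Lrp2 LABE_00059820 had 1290.5, 81.3, 67.4, 0.911, 1642 and 2.63 in segment 4 of fish 1 to 6, against 0 to 4.94 in segment 1. FCGBP LABE_00059034 had 1869, 96.9, 110.4, 2.73, 1674 and 4.38 in segment 4, against 0 to 4.94 in segment 1. FCGBP LABE_00023218 had 1410, 93.5, 87.1, 30.1, 1164 and 37.7 in segment 4, against 35.2 to 75.3 in segment 1. In all 3 models fish 1 and fish 5 were far above the other fish, and segment 3 was highest in fish 2 (186.7, 171.7 and 162.05).

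Log2 fold changes against segment 1 were 5.13 ± 1.50 for Lrp2 LABE_00059820 (limma, adjusted p = 0.0106), 5.08 ± 1.43 for FCGBP LABE_00059034 (adjusted p = 0.00829) and 1.56 ± 0.69 for FCGBP LABE_00023218 (adjusted p = 0.0915, though edgeR and DESeq2 called it at 0.00221 and 5.46e-05). The fold depended on the test: for these models in the same order the log2 fold changes were 8.46, 8.01 and 3.10 in edgeR and 8.51, 7.996 and 3.10 in DESeq2. None of them passed against segment 3 in limma. FCGBP LABE_00023218 was called there by edgeR (2.66, adjusted p = 0.0147) and DESeq2 (2.67, adjusted p = 0.00154). Neither test called Lrp2 LABE_00059820 or FCGBP LABE_00059034 against segment 3. Without fish 5, Lrp2 LABE_00059820 (4.02, adjusted p = 0.0713) and FCGBP LABE_00059034 (3.95, adjusted p = 0.0580) no longer passed against segment 1. Without the segment 4 libraries of fish 1 and fish 5 the log2 fold changes were 2.90 (adjusted p = 0.143), 2.96 (adjusted p = 0.116) and 0.05 (adjusted p = 0.940).

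Genes of egg cells varied with these models. The models most correlated with Lrp2 LABE_00059820 over the 24 libraries included ZP2 LABE_00031507 (r = 0.984), an egg envelope protein, and LHX8 LABE_00000890 (r = 0.980), a transcription factor of oocytes. ZP2 had 16553, 2155, 1477, 57.4, 27662 and 66.6 in segment 4 of fish 1 to 6. A list of 12 egg cell genes, chosen after these values were seen, had 26 models, of which 16 of 17 tested were higher in segment 4 than in segment 1 and 0 than in segment 3. The shares of all models were 17.1% and 5.21%. The summed value of the list was 55170, 7126, 4950, 348.8, 96779 and 324.9 in segment 4 of fish 1 to 6, and 235.1 to 11589 in segment 3, where fish 2 was highest, 154.1 to 1515 in segment 2 and 136.4 to 241.1 in segment 1. Of the 26 models, 1 named LHX8 and 1 named ZP3 had a mean under 5 in segment 4. Fish 5 and fish 1 were thus the highest in the sum as in the 3 models. On the scale of log2(value + 1) the Pearson correlation with the sum over the 6 segment 4 libraries was 0.995 for Lrp2 LABE_00059820, 0.993 for FCGBP LABE_00059034 and 0.948 for FCGBP LABE_00023218. The same correlation was -0.30 for CUBN, -0.20 for AMN, -0.05 for MRC1 LABE_00048734 and -0.18 for FCGBP LABE_00002036. ZP2 and LHX8, which are on the list, came from the models most correlated with Lrp2 LABE_00059820. The list was thus picked with that correlation known, so these counts and correlations describe the pattern and do not test it. The part of egg cells in the values of these models was not tested.

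FCGBP LABE_00002036 was high in other fish. It had 1.89, 245.0, 1016, 0, 16.9 and 771.5 in segment 4 of fish 1 to 6, against 0, 1.27, 9.17, 0, 1.82 and 29.0 in segment 1. Fish 2, 3 and 6 were thus high and fish 4 had 0. Fish 6 also had the highest value of segments 1 and 2. The log2 fold change was 3.72 ± 1.46 against segment 1 (limma, adjusted p = 0.0556) and 2.99 ± 1.46 against segment 3 (adjusted p = 0.230). With fish as a block these passed (adjusted p = 0.00329 and 0.0300), as they did in edgeR and DESeq2. The 3 untested FCGBP models had 17, 16 and 8 reads in all, of which 16, 12 and 6 came from segment 4. Goblet cell genes were lower in segment 4 than in segment 1, though CLCA1, TFF1, TFF2 and TFF3 of that list had no model. All 4 tested models were lower, where 14.8% of all models were. Examples were the mucin Muc2 at -1.62 ± 0.22 (adjusted p = 3.45e-06) and the secretory cell gene ATOH1 at -1.49 ± 0.15 (adjusted p = 2.67e-08). Against segment 3, 3 were lower, and agr2 was not called (-0.14 ± 0.21, adjusted p = 0.784). The summed value of all models of the list was 5556 to 16058 in segment 4, against 16338 to 23633 in segment 1.

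**Figure D4:**
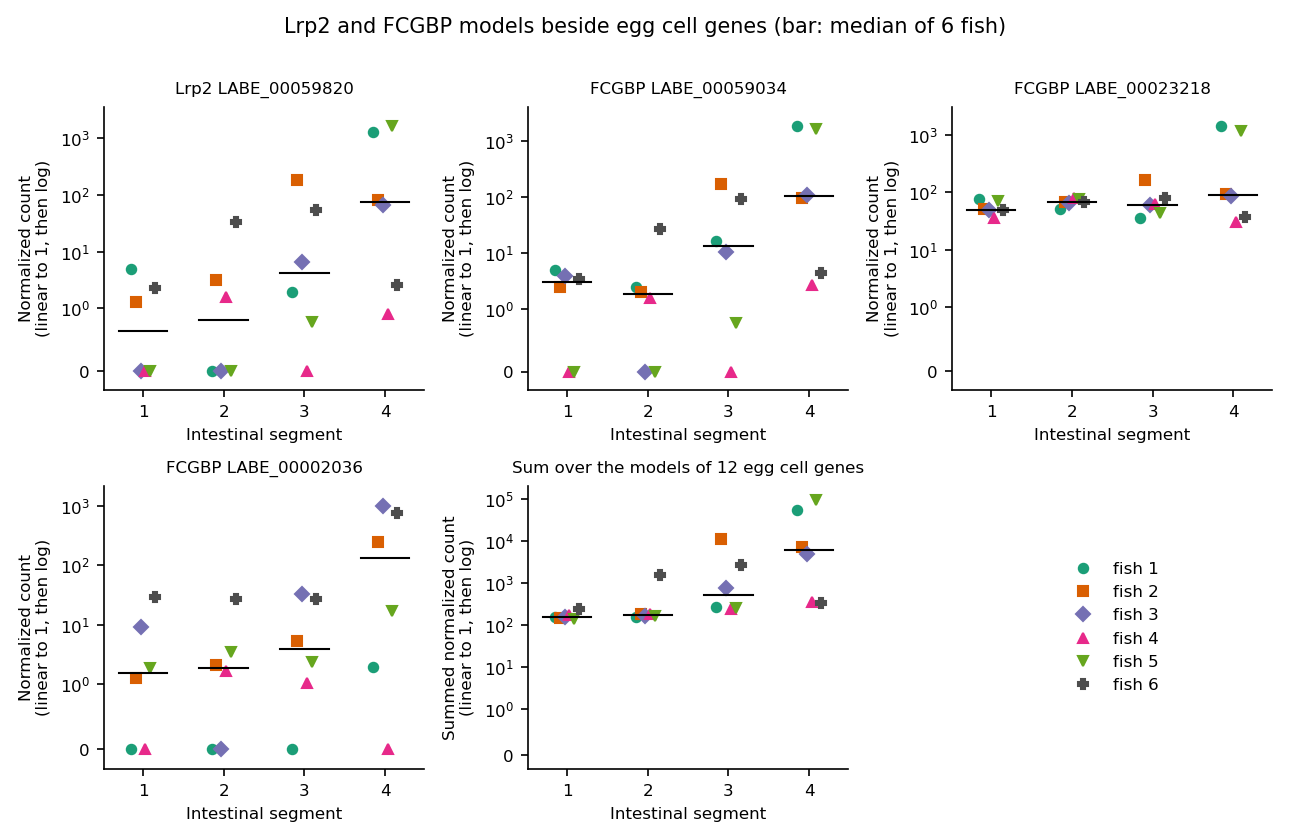
Normalized counts (axis linear to 1 and logarithmic above) of Lrp2 LABE_00059820 and 3 FCGBP models, and the summed normalized count over the models of 12 egg cell genes, by intestinal segment, with 1 marker per fish and a bar at the median of 6 fish. Fish 1 and fish 5 are highest in segment 4 for Lrp2 LABE_00059820, FCGBP LABE_00059034, FCGBP LABE_00023218 and the egg cell genes (55170 and 96779), and fish 3 and fish 6 for FCGBP LABE_00002036.

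**Figure D5:**
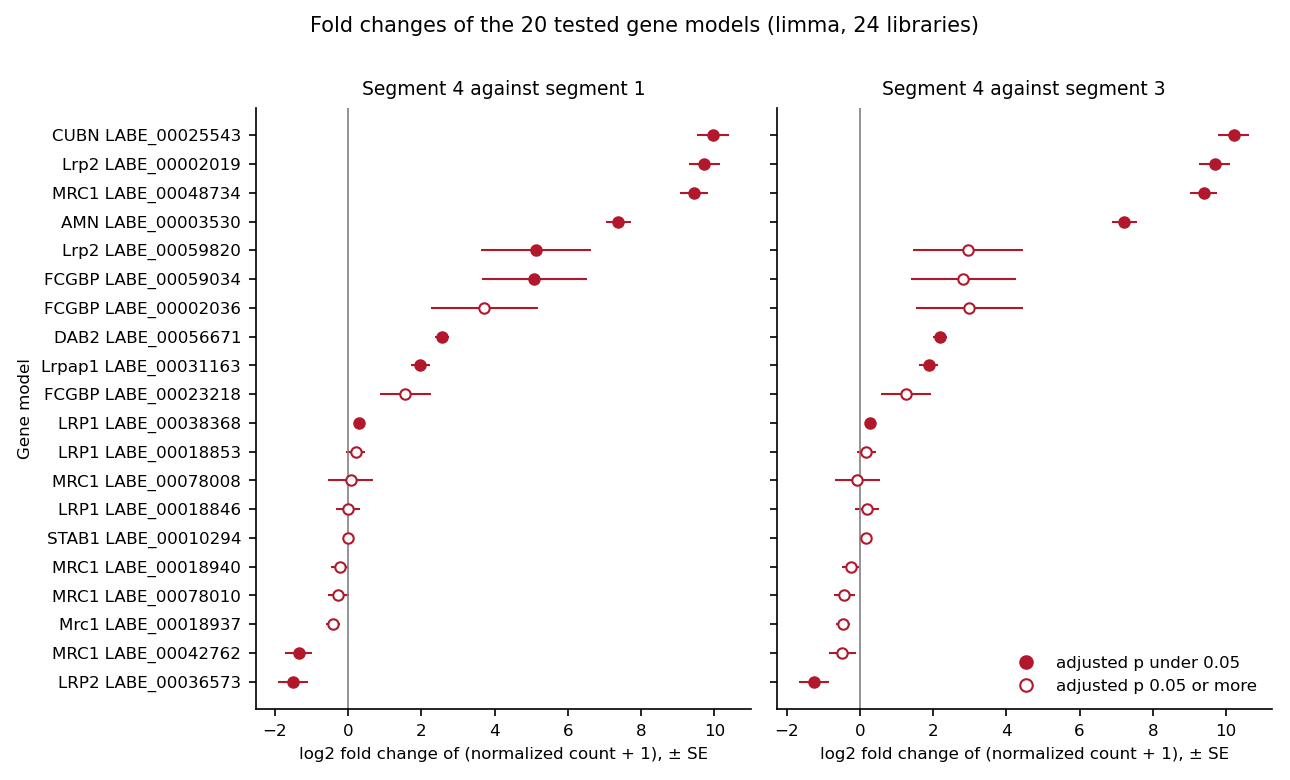
Log2 fold change of (normalized count + 1) for the 20 tested gene models, segment 4 against segment 1 (left) and against segment 3 (right), with error bars of 1 SE from limma and filled points where the adjusted p is under 0.05. CUBN, Lrp2 LABE_00002019, MRC1 LABE_00048734 and AMN lie between 7.22 and 10.21 in both, and LRP2 LABE_00036573 is the lowest at -1.50 and -1.26.

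Of 38 tested models of adaptors, coat and recycling proteins that work with these receptors, 11 were higher and 5 lower in segment 4 than in segment 1, where 17.1% of all models were higher and 14.8% lower. Against segment 3, 10 were higher and 1 lower, where 5.21% of all models were higher and 5.82% lower. The 4 called models with the highest mean all rose. The clathrin heavy chain CLTC LABE_00060996 was at 0.89 ± 0.15 against segment 1 (limma, adjusted p = 4.50e-05), the light chain CLTA at 0.83 ± 0.15 (adjusted p = 1.91e-04), the motor myosin VI (MYO6 LABE_00037853) at 0.61 ± 0.12 (adjusted p = 4.99e-04) and plasmolipin (PLLP), which in zebrafish acts in endosomes of posterior enterocytes, at 1.21 ± 0.24 (adjusted p = 3.33e-04). HIP1 LABE_00031984, a clathrin adaptor chosen after its values were seen, was at -1.47 ± 0.18 (adjusted p = 6.33e-07). Models that share a name with those above, also chosen afterwards, did not rise with them. MYO6 LABE_00029908 was lower, at -1.40 ± 0.39 (limma, adjusted p = 0.00723). Cltc LABE_00036148 and LABE_00037297 were not called, at 0.34 ± 0.19 and -0.18 ± 0.21 (limma, adjusted p = 0.196 and 0.571).

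Among 16 tested models of the LDL receptor family, 1 was higher and 2 were lower in segment 4 than in segment 1, beside 31.9% of all models called. Lrp5 LABE_00067901, a receptor of Wnt signalling, was at -1.17 ± 0.20 (limma, adjusted p = 7.88e-05), and Lrp4 LABE_00021106 at 7.72 ± 1.61 (adjusted p = 6.39e-04). Lrp4 varied widely between fish, from 16.4 to 9844 in segment 4, and did not pass against segment 3 (3.71 ± 1.61, adjusted p = 0.163). Among 29 tested mannose, scavenger and lectin receptors, 4 were higher and 6 lower, beside the same share. The fatty acid receptor CD36 fell by 5.89 ± 0.68 on the log2 scale (adjusted p = 3.75e-07) and the lipoprotein receptor SCARB1 by 3.08 ± 0.31 (adjusted p = 3.98e-08), while the lysosomal SCARB2 LABE_00008808 was at 0.73 ± 0.19 (adjusted p = 0.00407). Scarb2 LABE_00036232 and SCARB2 LABE_00050119, chosen after their values were seen, were not called. They were at -0.60 ± 0.24 and 0.19 ± 0.21 (limma, adjusted p = 0.0592 and 0.544).

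Of 16 tested models for proteins that bind megalin, cubilin or LRP1, 5 were higher and 8 lower in segment 4 than in segment 1, where 17.1% of all models were higher and 14.8% lower. Against segment 3, 3 were higher and 4 lower, where 5.21% of all models were higher and 5.82% lower. The higher models of this list include Gca, which was taken in by its match to the name GC but encodes grancalcin and not a ligand. The apolipoproteins apoeb LABE_00047834 and APOA1 LABE_00047835 fell by 2.67 ± 0.23 and 3.08 ± 0.39 (limma, adjusted p = 3.61e-09 and 1.39e-06). Transcobalamin carries vitamin B12 in blood, and the models given its name in the table or in the study's text did not change alike. LABE_00042844, whose identity was not tested, carries the name of another gene, Vtcn1, in the table, while the study's text names it a transcobalamin. It averaged 160 ± 178 in segment 4 and 1989 ± 431 in segment 1 (SD, n = 6 each) and fell by 4.14 ± 0.40 (adjusted p = 2.17e-08). The transcobalamin-like LABE_00037777 averaged 1531 ± 1543 in segment 4 and 1196 ± 1195 in segment 1 (adjusted p = 0.916). A model that the table names TCN2, LABE_00059456, chosen after its values were seen, rose by 1.83 ± 0.18 (adjusted p = 4.93e-08). Of 13 tested models for the transport and use of vitamin B12 inside cells, 1 was higher and 1 lower against segment 1, beside the same shares of all models. The mutase gene Mut was at -0.64 ± 0.11 (adjusted p = 4.93e-05) and ABCC1 LABE_00053808 at 2.43 ± 0.66 (adjusted p = 0.00626).

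Markers of other tissues that use these receptors were checked for the same step. In the kidney list, 10 of 18 models had a mean under 5 in segment 4, including both models named for nephrin (NPHS1) and those named Pax8, SLC34A1 and slc12a3. Beside 17.1% of all models higher and 14.8% lower, 2 of the 8 tested kidney models were higher and 3 lower in segment 4 than in segment 1. Higher was the kidney transcription factor pax2a LABE_00039495, with a mean of 357 in segment 4 and 23.9 in segment 1 (log2 fold change 3.96 ± 0.58, limma, adjusted p = 1.06e-05). So was Cdh16 LABE_00052855, a cadherin of kidney epithelium, chosen after its values were seen (0.79 ± 0.27, adjusted p = 0.0257). Neither pax2a nor Cdh16 passed against segment 3 (adjusted p = 0.893 and 0.869). The summed value of the tested and untested models was 24862 to 49959 in segment 4, against 47352 to 85030 in segment 1, mostly from Slc12a1 LABE_00030851 (mean 37798 over all libraries). This model was high in every segment, with means of 57559, 33395, 26588 and 33651 in segments 1 to 4. It was itself called lower against segment 1 (-0.79 ± 0.23, limma, adjusted p = 0.00938). Whether any of its reads came from kidney tissue was not tested. Among 7 tested liver models 0 were higher and 1 lower, among 16 of vessels 1 was higher and 4 were lower, and among 19 of fibroblasts and smooth muscle 2 were higher and 0 lower, beside the same shares of all models. Against segment 3, 4 of the 19 fibroblast and smooth muscle models were higher and 0 lower. In that comparison 1 kidney model was higher and 1 lower, 0 vessel models were higher and 1 lower, and 0 liver models were called. The shares of all models there were 5.21% higher and 5.82% lower.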

How the data were processed

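After adaptor trimming (cutadapt) and quality checks (FastQC 0.9.2), the authors aligned the reads with TopHat to an assembly of their own, summed them by gene model in featureCounts (Subread) and normalized the sums with DESeq2. What they deposited is the normalized count (signal), given to 5 significant digits. The strand setting and the handling of reads matching more than 1 model were not given in the sources used here, so models sharing a name may share reads. Identifiers and names are those of the table, in which 1 line without a gene model was left out. Whole reads could be recovered: of values worth under 5000 reads, 95.8% (lowest library) to 100% (highest) were whole to within 0.05. The recovered reads served for depth, edgeR 4.0.16 and DESeq2 1.42.0.

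Models with a value of 10 or more in 6 or more libraries entered 1 fit of all 24 libraries in limma 3.58.1 (R 4.3.3, trended variance) on log2(value + 1), with the 4 segments as groups, two-sided, with Benjamini-Hochberg adjustment over all 19515. The script was tested on simulated data. A fold change on this scale understates that of low genes. Every member is named, as are up to 4 called models per list with the highest mean and the 5 models most correlated with CUBN, MRC1 and DAB2. Members and lists were chosen with earlier results of these data known, and other names are given as chosen afterwards. Each fish gave all segments, so the numbers pair the libraries: after removal of segment means, libraries of 1 fish correlated at 0.435 on average (0.395 to 0.485 by fish) and others at -0.0864. The study's methods name no term for fish in their test, so fish as a block was an alternative, beside another pseudocount, no filter, other scalings, array weights, edgeR, DESeq2, separate fits and fits without each fish. The labels number the samples 1 to 6 with 4 segments each, and these numbers were read as 6 fish, although the methods name 5 fish. All 24 libraries were used.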

Additional observations from a re-analysis of the deposited data

Results flagged for a closer look

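In 8 of 80 groups of 6 libraries, formed by the 20 tested models and 4 segments, the extreme library lay farther from its neighbour than Dixon's 95% limit allows. Chance flags about 1 in 20 groups. Of the 8, 5 were the segment 4 library of fish 2, which was the lowest of its group: CUBN at 8814.9 (other fish 22862 to 33648), Lrp2 LABE_00002019 at 14715 (36140 to 52424), AMN at 1930.9 (4507.3 to 6257.8), MRC1 LABE_00048734 at 17445 (61307 to 76104) and DAB2 at 8012.1 (15725 to 21125). These 5 share 1 library and are not separate observations. Fish 2 was also the lowest in segment 1 for Lrp2 LABE_00002019, at 10.147 against 38.253 to 72.763 in the other fish. Fish 1 had 0 for MRC1 LABE_00078008 in segment 1, against 12.684 to 26.943 in the other fish, and the highest STAB1 in segment 2, at 1513.8 against 1064 to 1205.1.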

How the results depend on the processing

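CUBN, Lrp2 LABE_00002019, AMN, MRC1 LABE_00048734, DAB2 and Lrpap1 passed against segments 1 and 3 under all 18 alternatives, with log2 fold changes against segment 1 of 9.52 to 10.22, 9.33 to 9.98, 7.03 to 7.63, 9.24 to 9.77, 2.47 to 2.88 and 1.85 to 2.25. Without each fish in turn, the number of members called was 9 to 12 for segment 4 against segment 1, 6 to 10 against segment 2, 6 to 8 against segment 3, 6 to 9 in the F test, and 0 to 1 for each comparison among segments 1 to 3. The lowest counts, 6 against segment 2 and 6 in the F test, were those without fish 3, and 7 in the F test was that without fish 5. The fits without the segment 4 libraries of fish 1 and fish 5, chosen after seeing the data, gave 7 in the F test and 6 against segment 3, and those without segments 1 and 3 of fish 2, also chosen afterwards, gave 11 against segment 1. For segment 3 against segment 1, DESeq2 called 2 (Lrp2 LABE_00059820 and FCGBP LABE_00059034), and for segment 3 against segment 2, array weights called 1 (AMN). The fit with fish as a block called 13 members against segment 1, 12 against segment 2, 9 against segment 3, 13 in the F test and 1 for segment 3 against segment 1 (MRC1 LABE_00042762), and it lost no call. No share of all models is set beside the counts under these alternatives. They show how the member counts depend on the fit, and are no result about the members. No direction of a called result reversed in segment 4 against segment 1 or segment 3, the comparisons in which this was checked. Models with few reads limit the rest: the 9 untested members had 2 to 106 reads in all, and FCGBP LABE_00059034, FCGBP LABE_00023218 and Lrp2 LABE_00059820 were far higher in 2 of 6 fish than in the others.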
